A study of Homo sapiens with 4 samples.

Results

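The interferon-stimulated genes examined here are 34 protein-coding genes chosen by name, among them ISG15, IFI6, BST2, the IFIT, OAS and MX families, the viral RNA sensors DDX58 and IFIH1, and the factors IRF7 and IRF9. All 34 were found by Ensembl identifier and GENCODE 29 symbol among the 28274 genes of the deposited table. RNA sequencing was done on 4 libraries of the human cell line labelled J-gammal. The 2 controls (titles with the letters NC) carry the labels no treatment and genotype none, and the 2 other libraries (titles with the letters sh-FYB1) are labelled FYB1 knockdown. The sources used here do not say whether the controls carried a construct, whether both knockdown libraries carried the same one, or whether separate cultures were used within a group. P-values thus reflect only how far these 4 libraries vary, possibly for technical reasons, and an effect of the construct cannot be told apart from that of lower FYB1.

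Type I interferons bind the IFNAR1 and IFNAR2 chains, which activate the kinases JAK1 and TYK2. The kinases phosphorylate STAT2, which joins IRF9 in a complex that binds a promoter element known as the interferon-stimulated response element. Many of these genes have a basal level without added interferon, and several are also raised directly by IRF factors once a cell senses viral nucleic acid.

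To show that element, promoters were taken from RefSeq (GRCh38.p14, 250 bases before to 50 bases after each start) and searched for the word GAAANNGAAA, where N is any base, on both strands, with overlapping matches counted separately. Of the 34 genes 27 were found in that table. IRF7, IFIT2, OAS2, OASL, MX2, USP18 and TRIM22 were not matched. The word was present in 18 of the 27 promoters (66.7%) and in 3.57% of all 35116 promoters of the same length. A match describes letters only. The 8 stretches shown belong to the 3 most abundant genes, to 3 genes with higher means in the knockdown libraries and to 2 genes that were near 0 although their promoters hold the word. Each is 30 bases on the gene's own strand, with the word in capitals.
ISG15: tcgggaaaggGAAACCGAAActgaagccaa
IFI6: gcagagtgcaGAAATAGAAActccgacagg
BST2: ctgggaaactGAAACTGAAAacctaattaa
PARP14: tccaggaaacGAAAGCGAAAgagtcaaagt
DTX3L: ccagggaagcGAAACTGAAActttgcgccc
SAMD9: tctgagaaatGAAACTGAAAccaaacctat
MX1: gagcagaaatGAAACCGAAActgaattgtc
IFI44L: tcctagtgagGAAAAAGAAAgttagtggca

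ISG15, BST2 and IFI44L each hold 2 matches and IFI6 holds 3, and the match nearest the start is shown. The stretch of ISG15 lies at chr1:1013380-1013409 on the plus strand and the word begins 107 bases before the start. The stretch of IFI6 lies at chr1:27672266-27672295 on the minus strand (93 bases before) and that of BST2 at chr19:17405735-17405764 on the minus strand (124 bases before). PARP14 has its stretch at chr3:122680800-122680829 (plus strand, 29 bases before), DTX3L at chr3:122564322-122564351 (plus strand, 6 bases before) and SAMD9 at chr7:93118096-93118125 (minus strand, 136 bases before). In MX1 the word begins 11 bases after the start (chr21:41420559-41420588, plus strand). In IFI44L it begins 73 bases before the start (chr1:78620365-78620394, plus strand). BST2, DTX3L and SAMD9 hold the same 10 letters.

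The libraries held 16693113 to 20251864 recovered reads, that is, whole reads worked back from the deposited FPKM values (fragments or reads per kilobase of exon, scaled to the library total). All 12 markers of T cells had means of at least 1 FPKM and summed to 1357.8 to 1731.1 FPKM per library. Of markers of other cells, 1 of 5 for B cells (CD79A), 2 of 5 for NK and cytotoxic cells and 0 of 7 for myeloid and dendritic cells did, and the last list summed to 0.700 to 1.08 FPKM. Of 6 epithelial and stromal markers 2 did, VIM and PECAM1, which T cells can also express, and that list summed to 114.9 to 143.9 FPKM. FYB1, the targeted gene, encodes an adaptor protein of T cells and stood at 17.6 and 20.1 FPKM in the controls and at 6.18 and 4.53 FPKM in the knockdown libraries.

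At least part of the interferon-stimulated programme was expressed in the controls, and its levels spanned a wide range. By mean over the 4 libraries, 3 genes stood at 20 FPKM or more, 4 at 5 to 20 FPKM, 17 at 1 to 5 FPKM and 10 under 1 FPKM. Over the 24 at 1 FPKM or more the median level was 3.13 FPKM, against 6.64 FPKM over all 13172 genes with that mean. ISG15 was the most abundant, above 97.6% of those genes. MX1, a GTPase that blocks many viruses and a standard marker of interferon exposure, had 3 and 2 reads in the controls against 1 and 6 in the knockdown libraries. IFI44L had 0, 0, 0 and 3 reads, and 3 reads in control 1 would be 0.0176 FPKM, so neither gene allows a fold.

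**Figure D1:**
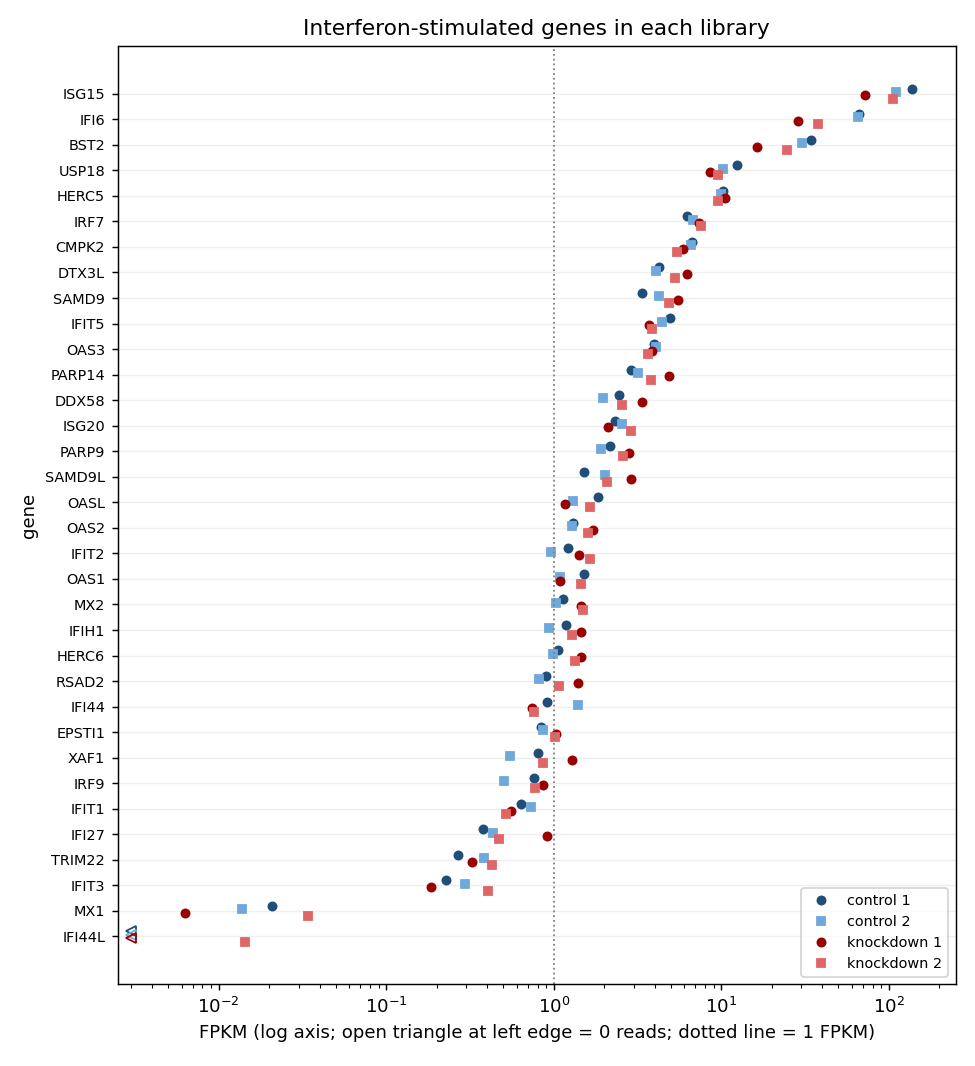
FPKM of the 34 interferon-stimulated genes on a log axis, one row per gene in order of mean level, with a point for each of the 4 libraries (blue controls, red knockdown). ISG15, IFI6 and BST2 stand above 10 FPKM in every library, and MX1 and IFI44L stand at the bottom with at most 6 reads.

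The question asked of these genes was whether they differed between the controls and the libraries with lowered FYB1. IFI6 and BST2 fell in the knockdown libraries by limma-voom on recovered reads, and 0 of the 24 tested genes passed limma-trend on log2(FPKM + 1), the main test. At an unadjusted p under 0.05 limma-trend gave 5 of the 24, 3 higher and 2 lower, where all genes gave 8.51% and 14.9%. Limma-trend called 0.205% of all genes tested at an adjusted p under 0.05, and 23.4% had an unadjusted p under 0.05. Limma-voom called 2 of 24 here, a share close to the 7.74% called of all genes, and lower ones were 5.80% of all genes. In bulk RNA, fewer cells that express a gene and less RNA per cell cannot be told apart.

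The genes did not move as a block. Of the 24 tested, 14 had higher and 10 lower knockdown means by limma-trend, with a median log2 fold change of 0.18 against -0.03 over all genes tested. A higher mean was found for 45.7% of all genes. In 13 of the 24 both knockdown libraries lay above both controls, and in 7 both lay below. Over all genes tested these shares were 26.0% and 34.6%. Against the mean of the controls the median of the 24 was 0.03 and -0.03 in controls 1 and 2 and 0.18 and 0.16 in knockdown libraries 1 and 2 (log2 scale). The same median over all genes was -0.05 and -0.01 in the knockdown libraries. When library totals were taken as the sums of reads, the all-gene median moved to 0.08 and that of the 24 to 0.28, and without the 17 genes under 5 FPKM the median of the remaining 7 was -0.29 against -0.11 over all 7743 genes at that level.

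The largest fall was that of IFI6, a small membrane protein that restrains apoptosis and interferes with viral replication (chromosome 1, 27666061 to 27672218, minus strand, hg38). IFI6 stood at 66.8 and 65.1 FPKM in the controls and at 28.8 and 37.7 FPKM in the knockdown libraries, from 962, 946, 460 and 668 reads. Both knockdown libraries were far below both controls, which differed little from each other. The mean of IFI6 went from 65.97 ± 1.17 to 33.3 ± 6.27 FPKM (SD, n = 2 each), 0.504 of the control level. Its log2 fold change by limma-voom was -0.996 ± 0.15 (SE, adjusted p = 0.00607). By limma-trend it was -0.98 ± 0.16 (adjusted p = 0.0949). The limma-voom call of IFI6 held without each library in turn, with log2 fold changes of -1.19 to -0.81.

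BST2, or tetherin, holds budding virus particles at the cell surface (chromosome 19, 17402939 to 17405648, minus strand, hg38). BST2 stood at 34.4 and 30.2 FPKM in the controls and at 16.3 and 24.5 FPKM in the knockdown libraries. The groups did not overlap, and knockdown library 1 was the lowest. The log2 fold change of BST2 was -0.68 ± 0.18 by limma-voom (adjusted p = 0.0464) and -0.66 ± 0.20 by limma-trend (adjusted p = 0.156). The limma-voom call of BST2 ended without control 1 (-0.59, adjusted p = 0.266), without knockdown library 1 (-0.39, adjusted p = 0.162) and when the sums of reads served as library totals (-0.54, adjusted p = 0.0845).

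Other measures moved with these genes. In 7 of the 12 T cell markers both knockdown libraries lay below both controls, and in 4 both lay above. Over all genes tested these shares were 34.6% and 26.0%. CD3D, a chain of the T cell receptor complex, stood at 478 and 419 FPKM in the controls and at 224 and 299 FPKM in the knockdown libraries. Among the 4 markers that lay above were CD3G, at 21.5 and 20.6 against 24.1 and 25.2 FPKM, and TRAC, at 400 and 373 against 406 and 459 FPKM. The B cell marker CD79A stood at 24.5 and 21.2 against 11.1 and 15.8 FPKM, while MS4A1 and PAX5 were at or near 0 in all 4 libraries. The B cell list summed to 25.5 and 21.9 FPKM in the controls and to 11.7 and 16.3 FPKM in the knockdown libraries. Mitochondrial genes took 4.09% and 4.03% of the control reads and 4.92% and 5.14% of the knockdown reads. The part of these measures in the changes of IFI6 and BST2 was not tested.

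ISG15 is a ubiquitin-like protein that is attached to newly made proteins during the interferon response. It stood at 137 and 109.9 FPKM in the controls and at 71.8 and 106 FPKM in the knockdown libraries. Knockdown library 2 was thus close to control 2, and the difference rested mostly on knockdown library 1. The log2 fold change of ISG15 was -0.49 ± 0.18 by limma-voom (adjusted p = 0.102). USP18, the protease that removes ISG15 and dampens receptor signalling, stood at 12.3 and 10.3 against 8.59 and 9.54 FPKM (-0.31 ± 0.15 by limma-voom, adjusted p = 0.204). HERC5, the main ligase for ISG15, stood at 10.3 and 9.99 against 10.6 and 9.54 FPKM. The groups of HERC5 overlapped, and the sign of its change turned with the scaling. HERC6, its neighbour on chromosome 4, stood at 1.06 and 0.987 against 1.45 and 1.33 FPKM (0.44 ± 0.21 by limma-voom, adjusted p = 0.186).

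ISG15, IFI6 and BST2 together took 36.7% and 33.6% of the control reads of the 34 genes and 19.5% and 27.5% of their knockdown reads. Per 1000000 recovered reads the 34 genes came to 581 and 562 in controls 1 and 2 and to 626 and 588 in the knockdown libraries. The share of the 3 abundant genes was lower in both knockdown libraries. The sum over the 34 was not lower on this scale, which divides by recovered reads. FPKM and the fits use the authors' totals instead, and knockdown library 1 had 16693113 recovered reads against an authors' total of 18436617. Summed reads of the 34 genes were 10224 (control 1), 9678 (control 2), 10452 (knockdown library 1) and 11910 (knockdown library 2). The authors' totals, in the same order, were 16648943, 16789004, 18436617 and 20480491. Relative to these totals the sum was lowest in knockdown library 1, and knockdown library 2 lay between the 2 controls. The higher knockdown sums given above thus depend on the scale.

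Higher means without a call were found in a cluster on chromosome 3 and a pair on chromosome 7. DTX3L is a ubiquitin ligase that works in a complex with the ADP-ribosyltransferase family protein PARP9, and PARP14 is another member of that family. DTX3L stood at 4.25 and 4.07 FPKM in the controls and at 6.21 and 5.27 FPKM in the knockdown libraries (0.46 ± 0.14 by limma-voom, adjusted p = 0.0693). PARP14 stood at 2.90 and 3.20 against 4.84 and 3.80 FPKM (0.49 ± 0.15 by limma-voom, adjusted p = 0.0653). PARP9 stood at 2.18 and 1.91 against 2.81 and 2.60 FPKM (0.40 ± 0.15 by limma-voom, adjusted p = 0.106). In all 3 genes both knockdown libraries were above both controls, and none passed the threshold with all 4 libraries.

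PARP9 and DTX3L point away from each other and their annotated ends overlap by 340 bases. They share 217 exon bases on opposite strands, 2.43% and 3.70% of their exon lengths, and without a stated use of strand reads from those bases cannot be assigned.

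SAMD9 and SAMD9L, paralogs 12.0 kb apart on chromosome 7, restrain poxviruses and cell growth. SAMD9 stood at 3.35 and 4.22 FPKM in the controls and at 5.51 and 4.86 FPKM in the knockdown libraries (0.46 ± 0.15 by limma-voom, adjusted p = 0.0824). SAMD9L stood at 1.51 and 2.01 against 2.90 and 2.07 FPKM (0.48 ± 0.21 by limma-voom, adjusted p = 0.155). In SAMD9L knockdown library 2 lay just above control 2, so the groups barely separated. Without knockdown library 2, limma-voom called 7 of the 24 genes, namely IFI6, BST2, ISG15, PARP14, DTX3L, SAMD9 and SAMD9L, while it called 3877 of 13172 genes in all.

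The RNA sensors had higher means. DDX58 encodes RIG-I and IFIH1 encodes MDA5, helicases that detect viral double-stranded RNA in the cytosol. DDX58 stood at 2.46 and 1.97 FPKM in the controls and at 3.34 and 2.56 FPKM in the knockdown libraries (0.40 ± 0.20 by limma-voom, adjusted p = 0.212). IFIH1 stood at 1.19 and 0.933 against 1.44 and 1.29 FPKM (0.37 ± 0.23 by limma-voom, adjusted p = 0.304). For both genes the lower knockdown value lay close to the higher control value, and neither passed a test.

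IRF7, which amplifies interferon production, stood at 6.26 and 6.82 FPKM in the controls and at 7.33 and 7.60 FPKM in the knockdown libraries (0.19 ± 0.15 by limma-voom, adjusted p = 0.423). IRF9, the DNA-binding partner of STAT2, stood at 0.760 and 0.502 against 0.858 and 0.772 FPKM. IRF9 shares 48.4% of its exon bases with an overlapping annotated gene on the same strand, AL136295.5, so its reads are uncertain.

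IFIT proteins bind viral RNA, and their genes lie side by side on chromosome 10. IFIT5 was the most abundant, at 4.92 and 4.41 FPKM in the controls and 3.70 and 3.86 FPKM in the knockdown libraries (-0.30 ± 0.15 by limma-voom, adjusted p = 0.220). IFIT2 went the other way, at 1.22 and 0.959 against 1.42 and 1.65 FPKM (0.50 ± 0.24 by limma-voom, adjusted p = 0.194). IFIT1 and IFIT3, which usually rise with interferon, were under 1 FPKM in every library. IFIT1 had 49 and 57 control reads against 47 and 49 knockdown reads, and IFIT3 had 10 and 13 against 9 and 22. The 4 neighbours thus had both signs and no call.

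The OAS enzymes make 2-5A, a second messenger of antiviral defence, and OASL is a relative without that activity. OAS3 stood at 3.98 and 4.06 FPKM in the controls and 3.88 and 3.66 FPKM in the knockdown libraries. OAS2 stood at 1.29 and 1.28 against 1.72 and 1.59 FPKM (0.36 ± 0.18 by limma-voom, adjusted p = 0.226). OAS1 stood at 1.51 and 1.08 against 1.10 and 1.46 FPKM, and OASL at 1.83 and 1.30 against 1.17 and 1.64 FPKM. The groups overlapped in OAS1 and OASL. The signs of OAS1 and OAS3 turned when the sums of reads served as library totals, and those of OAS1 and OASL turned when a library was left out, so no direction is given for this family.

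MX2, a GTPase that blocks nuclear entry of HIV-1, lies 10.9 kb from MX1 on chromosome 21. In contrast to MX1 it had 226 to 397 reads per library, and stood at 1.13 and 1.03 FPKM in the controls and 1.46 and 1.49 FPKM in the knockdown libraries. Each group of MX2 was tight and the groups were apart (0.45 ± 0.15 by limma-voom, adjusted p = 0.0893). RSAD2, or viperin, makes a chain-terminating nucleotide from CTP, and CMPK2, a mitochondrial nucleotide kinase, lies head to head with it on chromosome 2. RSAD2 stood at 0.895 and 0.813 against 1.39 and 1.08 FPKM (0.51 ± 0.25 by limma-voom, adjusted p = 0.201). CMPK2 stood at 6.72 and 6.55 against 5.94 and 5.46 FPKM (-0.22 ± 0.14 by limma-voom, adjusted p = 0.310). The pair, which shares 14 exon bases, had opposite signs, neither past a threshold.

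The 7 other genes lay at or below 2.90 FPKM. ISG20, an exonuclease of single-stranded RNA, had overlapping groups at 2.32 and 2.55 against 2.12 and 2.90 FPKM, and its sign turned under quantile normalization. XAF1, an antagonist of the apoptosis inhibitor XIAP, had 89 and 61 control reads against 156 and 117 knockdown reads. It shares 38.3% of its exon bases with a transcript on the opposite strand, so these reads are uncertain. IFI27 had 26 and 30 against 70 and 40 reads, EPSTI1 69 and 71 against 93 and 102, TRIM22, which restricts HIV-1 transcription, 27 and 39 against 36 and 53, and IFI44 31 and 48 against 28 and 32. IFI44L, named above, completes the set. With a filter of 20 mean reads in place of 1 FPKM, chosen after seeing the data, limma-voom tested 31 of the 34 genes. IFI6 and BST2 were again the only calls (6.88% of all genes passed), and the median log2 fold change was 0.26 against -0.02 over all 14283 genes. Of the 7 genes that entered by this filter XAF1 had the smallest adjusted p (0.64 ± 0.28, adjusted p = 0.157), and IFIT3, MX1 and IFI44L had too few reads for it.

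**Figure D2:**
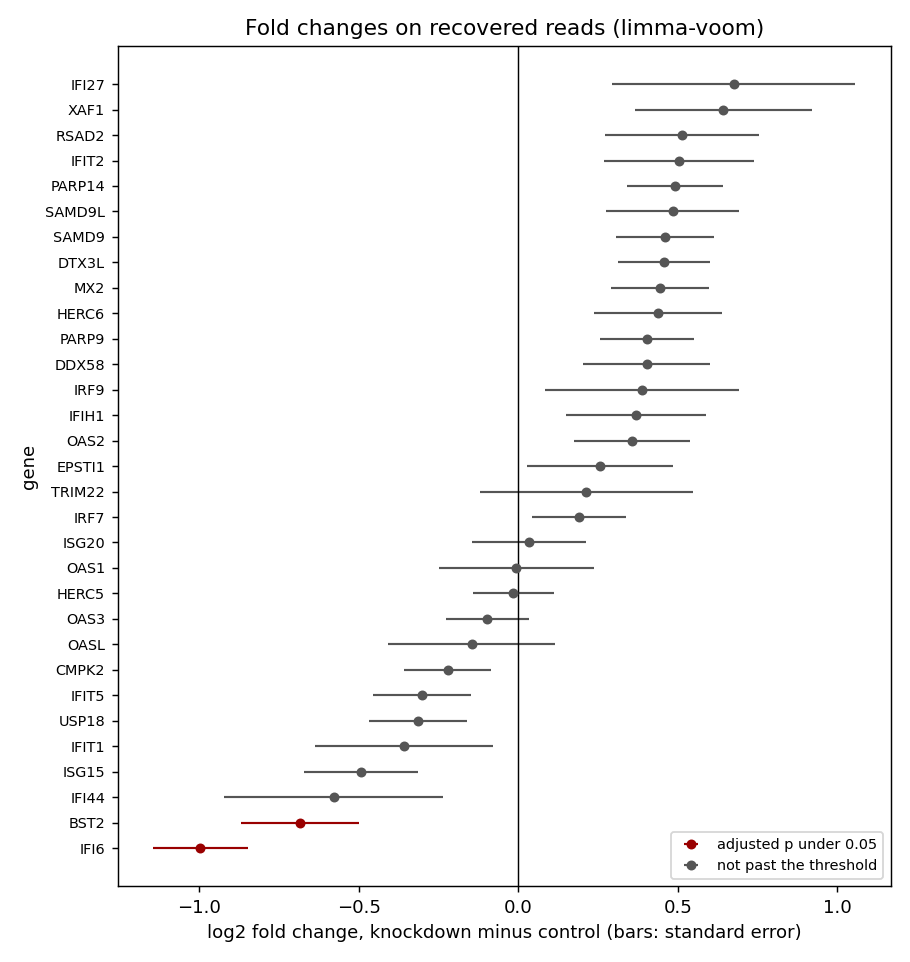
Log2 fold changes of 31 interferon-stimulated genes by limma-voom on recovered reads with a minimum mean of 20 reads, with standard errors as bars. IFI6 and BST2 (red) are the 2 genes past an adjusted p of 0.05, both lower, and 19 of the 31 lie above 0.

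Exon length moved with these changes. ISG15, IFI6 and BST2 have 941, 865 and 1119 bases of merged exon, the shortest of the 24 tested genes, and all 3 had lower means. Of the 8 genes with 6000 bases or more, 7 had higher means, OAS3 being the exception. Across the 24 genes the limma-trend log2 fold change and exon length had a Spearman correlation of 0.69, and across all 10570 protein-coding genes tested it was 0.45. Across all genes tested, coding or not, it was 0.22. With mean FPKM the correlation was -0.49 across the 24 and -0.36 across all genes tested. The 3 shortest genes are also the 3 most abundant, and the parts of length and level were not separated. Genes of 1 table share libraries and are not independent, so these are descriptions. The 221 coding genes under 1200 bases had a median log2 fold change of -0.39, and the 4121 with 6000 or more had 0.07. The 3 short and 8 long genes here had medians of -0.66 and 0.27.

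With a smooth trend on exon length removed from each library, a step added after seeing the data, IFI6 was at -0.88 and passed limma-trend (adjusted p = 0.0462). In the same fit BST2 was at -0.52, ISG15 at -0.38, DTX3L at 0.41, PARP14 at 0.28 and MX2 at 0.10, none called. The median of the 24 was then 0.16 against 0.01 over all genes, with 16 genes higher and 8 lower. The trend was fitted over all 13172 genes tested, coding or not, where fold change and exon length had a Spearman correlation of 0.22. After the step that correlation was still 0.38 across the 24 genes, so part of the length trend remained in them. What part of the single changes goes with exon length was not tested beyond this.

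**Figure D3:**
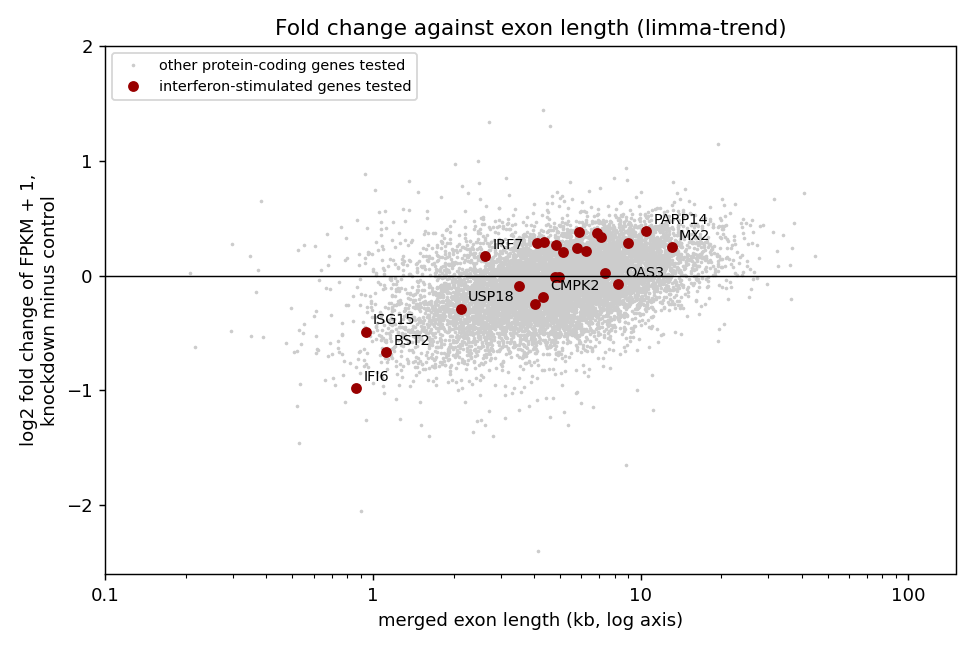
Limma-trend log2 fold change (knockdown minus control, on FPKM + 1) against merged exon length in kb on a log axis for protein-coding genes (grey) and the 24 tested interferon-stimulated genes (red, some named). The shortest genes IFI6, ISG15 and BST2 sit lowest among the red points, and the grey cloud rises with length as well.

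Among the 24 genes with both a promoter in the RefSeq table and a fold change with the filter of 20 reads, the 15 whose promoters hold GAAANNGAAA had a median log2 fold change of -0.01 (7 higher, 8 lower). The 9 whose promoters do not hold the word had 0.40 (7 higher, 2 lower). The carriers include both genes that fell, and also PARP14, DTX3L and SAMD9, whose stretches are shown above and whose means were higher. A single window per gene was searched, so the split depends on the start used. PARP9 counts among the 9, although the stretch of DTX3L lies within the bases where PARP9 and DTX3L overlap. IRF9 and XAF1, whose reads are uncertain, are also among the 9.

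The machinery upstream was examined with a list of 127 other genes of the interferon system. Of these, 104 had a row in the table and 77 were tested, of which limma-trend called 0 (11 at an unadjusted p under 0.05, against 23.4% of all genes) and limma-voom 2 higher and 1 lower (against 7.74% of all genes in either direction). Neither share was above that of all genes. Higher means were found for 40 and lower means for 37, against 45.7% higher over all genes, with a median log2 fold change of 0.01 by limma-trend against -0.03. Interferon genes themselves were hardly seen. Of the 21 listed, IFNK, IFNG and IFNL1 had a row, with at most 3 reads in any library.

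The receptor and signalling genes were present and none of 9 tested passed. Control and knockdown means were 9.10 and 9.79 FPKM for IFNAR1, JAK1 had 23.1 and 28.0, TYK2 25.9 and 25.7 and STAT2 13.1 and 15.5 FPKM. Of the other IRF factors, 3 were tested and none passed, and IRF3, the factor that RIG-I and MDA5 signalling activates, had means of 30.9 and 27.5 FPKM. None of 6 negative regulators or 11 targets of interferon gamma passed. B2M, the light chain of HLA class I, had means of 161 and 135 FPKM.

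Of the 3 calls outside the 34 genes, UBE2L6, the conjugating enzyme that passes ISG15 to its ligases, fell. It stood at 67.5 and 59.9 FPKM in the controls and at 38.4 and 49.7 FPKM in the knockdown libraries (-0.54 ± 0.14 by limma-voom, adjusted p = 0.0442). UBE2L6 and ISG15 thus both had lower means, and UBA7, the activating enzyme of the same cascade, had overlapping groups between 0.907 and 1.25 FPKM. EIF2AK2, the kinase PKR that stops translation on sensing double-stranded RNA, rose from 1.83 and 2.23 to 3.67 and 2.79 FPKM (0.66 ± 0.17 by limma-voom, adjusted p = 0.0412). ZNFX1, a helicase that senses viral RNA at mitochondria, rose from 6.69 and 6.65 to 9.44 and 8.83 FPKM (0.45 ± 0.12 by limma-voom, adjusted p = 0.0440). UBE2L6 has 2197 bases of merged exon, and EIF2AK2 and ZNFX1 have 10753 and 9340. The limma-trend test called none of the 3 (adjusted p = 0.156, 0.165 and 0.126). Without control 1 the limma-voom calls of UBE2L6, EIF2AK2 and ZNFX1 ended at log2 fold changes of -0.46, 0.52 and 0.46 (adjusted p = 0.422, 0.369 and 0.425). Without knockdown library 1 they ended at -0.36, 0.46 and 0.41 (adjusted p = 0.131, 0.153 and 0.0874). Without control 2 those of UBE2L6 and ZNFX1 ended at -0.63 and 0.45 (adjusted p = 0.0923 and 0.278). When the sums of reads served as library totals, those of UBE2L6 and EIF2AK2 ended at -0.40 and 0.79 (adjusted p = 0.0762 and 0.0592).

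**Figure D4:**
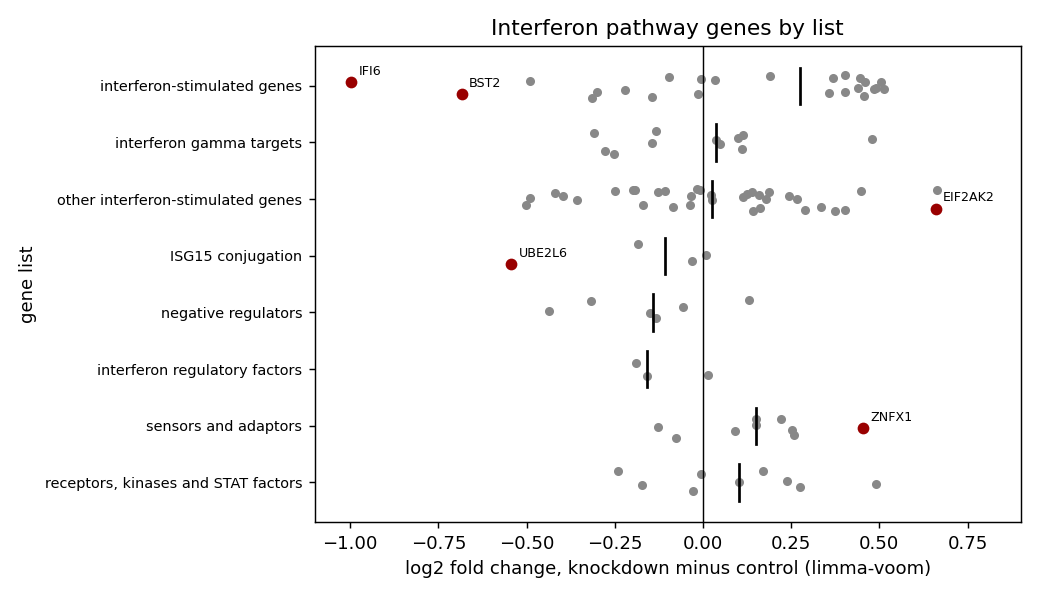
Limma-voom log2 fold changes (knockdown minus control) of the tested genes of 7 other interferon pathway lists and of the 24 interferon-stimulated genes, with vertical bars at list medians and called genes in red. The interferon-stimulated genes spread from -0.996 to 0.51, with IFI6 and BST2 at the low end.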

How the data were processed

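Trizol RNA went into Illumina TruSeq RNA libraries, per the labels' protocols. HISAT2 2.0.5 and build hg38 are named in the submitters' processing notes, while the counting program, annotation and use of strand are not stated in what was used here. The deposited table names no unit. Its values were taken as FPKM as scaled by the authors, because multiplying by merged exon length (GENCODE 29) turned 100% of the values in each library into whole multiples of a single step (tolerance 0.001). Dividing by that step gave the recovered reads. The library totals the authors used were 16648943 and 16789004 for the controls and 18436617 and 20480491 for the knockdown libraries, so 1 FPKM over 1 kb is 16.6 to 20.5 reads.

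For the main result limma-trend (limma 3.58.1, R 4.3.3) was run on log2(FPKM + 1) of 13172 genes whose mean reached 1 FPKM, two-sided, with group as the single term and Benjamini-Hochberg adjustment over all of them at 0.05. On that scale the change of low genes is understated. Limma-voom on recovered reads, with the authors' totals, was the named alternative. It was also run, like the main test, on simulated data, and the outcome is not reported here. Counting limits cover counting error only. The members, lists and tests were chosen with earlier results of these data known. The rule for names was all 34 genes, FYB1, the called genes of each pathway list and otherwise at most 2 per list with high means. IFNAR1, STAT2, UBA7 and the interferon genes are named outside it, for their place in the pathway, after their values were seen.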

Additional observations from a re-analysis of the deposited data

How the results depend on the processing

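By limma-trend the count of genes called over all genes was 27, and it was 20 with a pseudocount of 0.1, 181 with a mean of at least 5 FPKM, 0 with every gene above 0, 45 under quantile normalization, 76 with the sum of reads as total, 1019 by limma-voom, 111 with the exon length trend removed, and 0 to 406 without each library in turn. The count of interferon-stimulated genes called by limma-trend was 0, and it was 1 with a mean of at least 5 FPKM, 2 by limma-voom, 1 with the exon length trend removed and 0 to 1 without each library. By limma-voom it was 2, and it was 1 with the sum of reads and 1 to 7 without each library. The titles' numbers 1 and 2 are not said to pair libraries, and the difference between library 1 and library 2 correlated at -0.21 between groups over 13172 genes. With a replicate block the counts were 781 genes and 2 of the 24, and with a crossed block, added after the data were seen, 1910 and 4. The block in limma-voom left 2, and it ended the call of ZNFX1 (0.45, adjusted p = 0.0938) but not those of UBE2L6 and EIF2AK2 (adjusted p = 0.0336 and 0.0137).

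The median log2 fold change of the tested genes was 0.18, and it was 0.26 with a pseudocount of 0.1, -0.29 with a mean of at least 5 FPKM, 0.089 with every gene above 0, 0.12 under quantile normalization, 0.28 with the sum of reads, 0.27 by limma-voom and 0.15 to 0.18 without each library. Signs turned in 17 of 295 single-gene values, all in 5 genes. OAS1 was at 0.068 with the sum of reads, -0.14 to 0.12 without each library and 0.052 with the length trend removed. OAS3 was at 0.035 with the sum of reads. OASL was at -0.24 to 0.055 without each library and 0.034 with the length trend removed. HERC5 was at 0.051 under quantile normalization, 0.11 with the sum of reads, -0.080 to 0.055 without each library and 0.055 with the length trend removed. ISG20 was at -0.031 under quantile normalization, -0.14 to 0.18 without each library and -0.0044 with the length trend removed. The cause of these moves was not tested. Depth limits what genes under 20 mean reads can show.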
